A study of Rattus norvegicus with 36 samples.

Results

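The genes described here are 10 genes of fatty acid synthesis that are known targets or regulators of the transcription factors SREBP1 and ChREBP: Fasn, Acss2, Acly, Acaca, Scd, Elovl6, Srebf1, Mlxipl, Thrsp and Me1. Each was found through probe sets (groups of short probes on the array) that carry its symbol alone in the platform annotation, and each is shown by its brightest probe set over all arrays. All 10 were found, with 17 probe sets, among 14217 named genes and 31042 probe sets. The livers came from male Sprague Dawley rats that were 7 weeks old when the study began. They received TBPH, bis(2-ethylhexyl) tetrabromophthalate, a brominated flame retardant, in corn oil by gavage at 5 ml/kg on 5 days in a row, and liver was taken 1 day after the last dose. The 6 groups are vehicle (corn oil without TBPH) and TBPH at 706, 70.6, 7.06, 0.71 and 0.07 mg/kg, with 6 arrays each and 36 in all. The labels number the arrays of a group without saying that each is a separate rat, so the tests speak only to variation among these arrays. The series asks which liver transcripts differ from vehicle at each dose.

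Liver turns surplus carbohydrate into fatty acids. Acly makes acetyl-CoA from citrate and Acss2 makes it from acetate, Acaca carboxylates it to malonyl-CoA, Fasn builds palmitate, Elovl6 lengthens palmitate and Scd adds a double bond. Me1 supplies NADPH for the synthesis, and Thrsp (Spot 14) is a nuclear protein of lipogenic tissues that responds to thyroid hormone and carbohydrate. Srebf1 encodes SREBP1, a membrane-bound factor that is raised by insulin and released by cleavage, and Mlxipl encodes ChREBP, a factor activated by glucose metabolites. SREBP2, a close relative of SREBP1, acts mainly on cholesterol synthesis and is controlled by the same sterol-sensing proteins, Scap and the Insigs.

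RefSeq promoters (rat build GRCr8) were at hand for 7 of the 10 genes, matched by gene ID: Acly, Acss2, Me1, Mlxipl, Scd, Srebf1 and Thrsp. Fasn, Acaca and Elovl6 are named only. The 250 bases before the annotated start are printed for Acly, Acss2, Srebf1 and Thrsp. Each of these belongs to a pair of genes with a correlation (r) of at least 0.78 below. Scd and Mlxipl are printed for contrast, and Me1 is not printed. Sequences read 5′ to 3′ along the gene, and capitals mark every match, on either strand, to any of 4 motifs. These are the E-box, spelled CACGTG, to which ChREBP and other factors bind; the GC box, spelled GGGCGG; the box of NF-Y, spelled CCAAT; and the core of a sterol response element, searched for as TCACNCCA. Srebf1 and Mlxipl each have 2 annotated starts in the table. Both are shown for Srebf1, while those of Mlxipl lie 4 bases apart, hold the same motifs, and only the downstream one is shown.
Acly, chr10:85963632-85963881, minus strand: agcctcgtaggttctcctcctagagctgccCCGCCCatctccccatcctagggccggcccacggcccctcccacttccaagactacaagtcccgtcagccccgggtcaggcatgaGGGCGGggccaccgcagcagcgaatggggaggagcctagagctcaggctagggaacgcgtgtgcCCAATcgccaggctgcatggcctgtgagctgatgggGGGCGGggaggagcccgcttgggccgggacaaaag
Acss2, chr3:164464453-164464702, plus strand: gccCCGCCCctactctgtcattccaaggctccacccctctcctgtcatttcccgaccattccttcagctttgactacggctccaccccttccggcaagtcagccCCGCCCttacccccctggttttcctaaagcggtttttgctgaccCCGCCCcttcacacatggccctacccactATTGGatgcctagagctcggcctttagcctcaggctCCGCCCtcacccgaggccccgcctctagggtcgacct
Srebf1, upstream start, chr10:45529165-45529414, minus strand: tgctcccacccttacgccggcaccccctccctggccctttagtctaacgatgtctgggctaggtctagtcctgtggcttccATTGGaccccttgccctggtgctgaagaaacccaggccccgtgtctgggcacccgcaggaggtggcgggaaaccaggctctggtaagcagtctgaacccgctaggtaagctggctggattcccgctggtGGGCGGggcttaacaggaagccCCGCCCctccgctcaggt
Srebf1, downstream start, chr10:45519011-45519260, minus strand: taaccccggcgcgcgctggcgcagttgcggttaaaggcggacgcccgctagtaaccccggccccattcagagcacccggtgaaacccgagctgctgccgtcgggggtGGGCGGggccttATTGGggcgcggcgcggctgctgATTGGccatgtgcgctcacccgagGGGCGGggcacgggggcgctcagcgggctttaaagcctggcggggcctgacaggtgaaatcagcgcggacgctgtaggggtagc
Thrsp, chr1:161138965-161139214, minus strand: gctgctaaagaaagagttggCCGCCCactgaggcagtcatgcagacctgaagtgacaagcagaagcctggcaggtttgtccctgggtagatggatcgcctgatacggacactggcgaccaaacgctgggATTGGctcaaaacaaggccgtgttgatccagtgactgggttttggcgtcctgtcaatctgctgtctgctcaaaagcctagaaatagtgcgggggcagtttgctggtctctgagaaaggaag
Mlxipl, chr12:27213657-27213906, minus strand: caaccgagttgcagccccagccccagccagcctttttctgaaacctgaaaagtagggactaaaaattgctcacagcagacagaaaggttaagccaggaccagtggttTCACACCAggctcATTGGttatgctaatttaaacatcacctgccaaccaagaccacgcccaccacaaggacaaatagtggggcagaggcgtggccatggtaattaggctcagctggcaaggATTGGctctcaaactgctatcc
Scd, chr1:253231732-253231981, minus strand: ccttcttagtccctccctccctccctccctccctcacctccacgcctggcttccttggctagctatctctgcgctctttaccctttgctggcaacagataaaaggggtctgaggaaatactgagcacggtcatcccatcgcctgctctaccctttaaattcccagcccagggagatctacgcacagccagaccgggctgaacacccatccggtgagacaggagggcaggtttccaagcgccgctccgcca

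A CCAAT box, the site read by NF-Y, was found before 5 of the 7 genes (Acly, Acss2, Srebf1, Thrsp and Mlxipl), against 34.0% of all 33469 promoters in the table. In Acly and Acss2 it begins at a like distance, 71 and 73 bases before the start and on opposite strands. In Thrsp it begins 121 bases before the start. GC boxes, which bind Sp1, were found before 5 genes (Acly, Acss2, Me1, Srebf1 and Thrsp), against 30.5% of all promoters, with 4 of them in Acss2 and 5 in Me1. The sterol element core occurred before Mlxipl alone, against 3.24% of all promoters, and the E-box before none of the 7, against 5.59%. The Scd window holds none of the 4 motifs. The Me1 window holds no CCAAT box, although Me1 passed the correlation test below with 5 of the 9 other genes. Any link between motifs and correlation was not tested. Matched letters overlapped between motifs in none of these windows. A match describes letters in the window and not a working site, and the arrays do not measure binding.

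Hepatocyte markers were bright in this tissue, with mean log2 values from 12.72 to 14.76 for 10 measured markers such as Alb and Ttr. Arrays correlated with each other at 0.987 to 0.996 across probe sets, and none were identical. The array's own GAPDH control, whose 3′ signal rises over its 5′ signal when RNA is shortened, stood apart on 2 arrays, with a 3′ minus 5′ difference of 0.41 log2 on 70.6 mg/kg replicate 5 and 0.33 on 0.07 mg/kg replicate 4, against at most 0.09 on the others. All values below are log2 RMA values, in which 1 unit is a factor of 2, and a level is compared only within a gene. In whole liver, fewer cells of a type and less RNA per cell cannot be told apart. All 10 genes lay above the median probe set mean of 5.09.

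Across the dose groups the values of the 10 genes overlapped widely. Ordered by group mean, every neighbouring pair of groups differed by less than the within-group SD in each of the 10 genes. Steps between 6 ordered means tend to be small, so they say little alone. From lowest to highest group mean, the range exceeded that SD in all genes but Acly (0.21 against 0.39) and Elovl6 (0.46 against 0.51). In Acss2 it was 0.44 against 0.26. The plot of values by dose group shows every array.

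**Figure D1:**
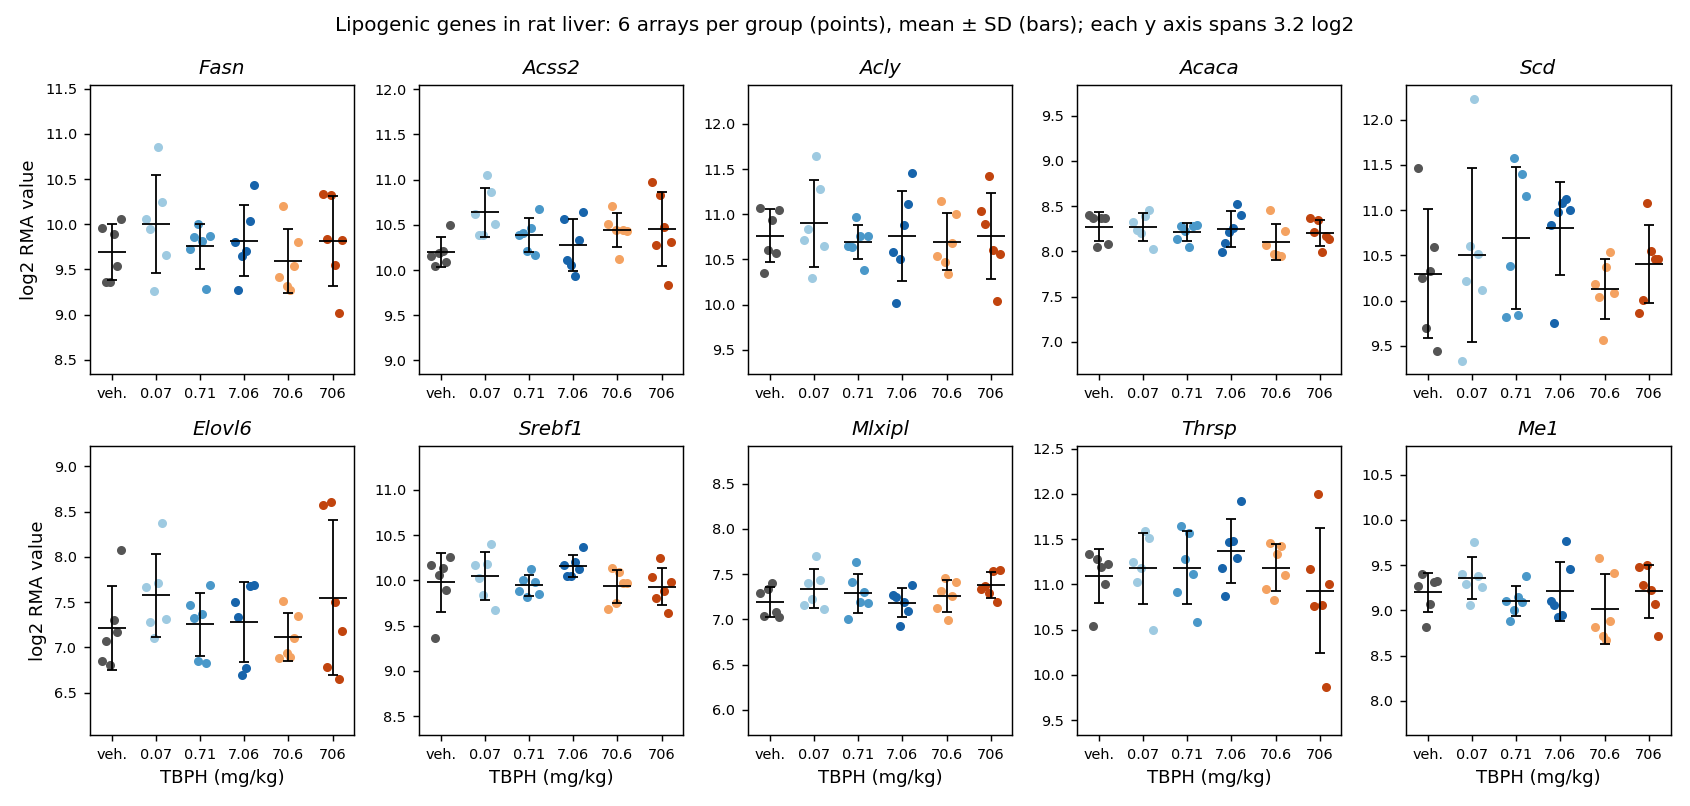
Log2 RMA values of the 10 genes (y axis, each spanning the same range) against TBPH dose in mg/kg (x axis) for 36 arrays; points are arrays, bars the mean ± SD of 6 arrays. The groups overlap in every gene, and the points spread most in Scd and least in Acaca.

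Acetyl-CoA supply came out as follows. Acly ranged from 10.35 to 11.07 in vehicle, with a median of 10.77, and from 10.04 to 11.43 at 706 mg/kg, with a median of 10.75. At 0.07, 0.71, 7.06 and 70.6 mg/kg its medians were 10.77, 10.70, 10.73 and 10.61, within outer values of 10.02 and 11.64. Acly thus held nearly the same median in all 6 groups, while single arrays differed by up to 3.07-fold. Acss2 ran from 10.04 to 10.50 in vehicle (median 10.17), from 10.39 to 11.05 at 0.07 mg/kg (median 10.56) and from 10.16 to 10.67 at 0.71 mg/kg (median 10.40). It ran from 9.94 to 10.64 at 7.06 mg/kg (median 10.22), from 10.12 to 10.71 at 70.6 mg/kg (median 10.44) and from 9.84 to 10.97 at 706 mg/kg (median 10.39). The vehicle median of Acss2 was the lowest of the 6, and each dosed group overlapped vehicle.

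Chain building and its reducing power were spread differently. Acaca, the carboxylase, moved least, from 7.95 to 8.53 over all 36 arrays. Fasn, the synthase, ran from 9.36 to 10.06 in vehicle (median 9.72), from 9.26 to 10.86 at 0.07 mg/kg (median 10.001), from 9.28 to 10.002 at 0.71 mg/kg (median 9.83) and from 9.27 to 10.43 at 7.06 mg/kg (median 9.75). At 70.6 mg/kg it ran from 9.28 to 10.20 (median 9.48) and at 706 mg/kg from 9.02 to 10.33 (median 9.83). Both the highest and the lowest Fasn value thus came from dosed groups, at 0.07 and at 706 mg/kg. Me1, the malic enzyme, ran from 8.67 to 9.76 over the 36 arrays, with group medians between 8.85 at 70.6 mg/kg and 9.34 at 0.07 mg/kg.

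By within-group SD, Scd (0.66) and Elovl6 (0.51) varied most of the 10. Scd, the desaturase, ran from 9.44 to 11.47 in vehicle (median 10.29), from 9.34 to 12.23 at 0.07 mg/kg (median 10.36) and from 9.82 to 11.58 at 0.71 mg/kg (median 10.77). It ran from 9.76 to 11.12 at 7.06 mg/kg (median 10.99), from 9.57 to 10.53 at 70.6 mg/kg (median 10.13) and from 9.87 to 11.08 at 706 mg/kg (median 10.46). The 0.07 mg/kg group alone thus held both the highest and the lowest Scd value of the study, 7.43-fold apart. Elovl6, the elongase, ran from 6.81 to 8.07 in vehicle (median 7.12) and from 6.65 to 8.60 at 706 mg/kg (median 7.34). At 706 mg/kg the mean of Elovl6 was 7.55 ± 0.86 (SD, n = 6), against 7.21 ± 0.46 in vehicle, and that group spanned its whole range over the study.

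The genes of both transcription factors had narrower ranges than Thrsp. Srebf1 ran from 9.37 to 10.26 in vehicle (median 10.09), and its group medians lay between 9.93 and 10.15. Its SD was 0.12 at 7.06 mg/kg, 0.12 at 0.71 mg/kg and 0.32 in vehicle. Mlxipl ran from 6.93 to 7.70 over all arrays, with group medians between 7.19 in vehicle and 7.35 at 706 mg/kg. Thrsp ran from 10.54 to 11.34 in vehicle (median 11.21) and from 9.86 to 11.996 at 706 mg/kg (median 10.89). The lowest and the highest Thrsp value of the study were both at 706 mg/kg, a 4.38-fold range within 1 dose group.

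Set beside 9584 named genes with a mean above the median probe set, the within-group SD of Scd (0.66) stood at the 99.4th percentile, that of Elovl6 (0.51) at the 98.7th, that of Thrsp (0.42) at the 97.9th, that of Fasn (0.40) at the 97.5th and that of Acly (0.39) at the 97.4th. Me1 (0.28) and Acss2 (0.26) stood at the 93.4th and 92.2nd. The factors themselves lay lower, Srebf1 (0.22) at the 86.2nd and Mlxipl (0.18) at the 76.6th, and Acaca (0.16) at the 67.0th. By the brightest probe sets, the spread between arrays of the same dose was therefore largest in the desaturase and the elongase and smallest in the carboxylase. This order depends on the probe set. The standard error of a dose difference was 0.092 for Acaca's brightest probe set, 0.115 for its dimmer one and 0.102 for Mlxipl.

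No difference between a dose and vehicle passed the test for any of the 10 genes. Of the 50 differences (10 genes at 5 doses), 0 had an adjusted p under 0.05 in limma with Benjamini-Hochberg adjustment over all probe sets, and the smallest was 0.92. The share of all probe sets called in this way was 0% at each of the 5 doses. At an unadjusted p under 0.05, 1 of the 50 differences passed, while the shares of all probe sets were 3.07% at 0.07, 3.98% at 0.71, 3.48% at 7.06, 5.24% at 70.6 and 3.48% at 706 mg/kg. In 0 of 50 cases did a dosed group fail to overlap vehicle, against 0.148%, 0.155%, 0.216%, 0.168% and 0.142% of all probe sets in the same order of doses. The doses share the 6 vehicle arrays, so values that recur across doses are not independent.

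The 1 difference with an unadjusted p under 0.05 was that of Acss2 at 0.07 mg/kg, the lowest dose. Its mean was 10.64 ± 0.27 (SD, n = 6) there and 10.20 ± 0.16 in vehicle, a difference of 0.44 log2 (95% interval 0.15 to 0.73; limma adjusted p = 1). Acss2 was 0.19 higher at 0.71, 0.08 at 7.06, 0.24 at 70.6 and 0.25 at 706 mg/kg, where all 4 intervals included 0. The values therefore showed no order with dose, and the slope of Acss2 over dose rank was 0.016 log2 per step (-0.04 to 0.07).

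All differences lay between -0.19 (Me1 at 70.6 mg/kg) and 0.50 (Scd at 7.06 mg/kg), with a median standard error of 0.18. The 95% interval lay within 2-fold either way in 48 of the 50 and within 1.5-fold in 36. The exceptions at 2-fold were Scd at 0.71 mg/kg (0.40, -0.32 to 1.11) and at 7.06 mg/kg (0.50, -0.21 to 1.22). The tightest bounds were those of Acaca, which differed by -0.07 at 706 mg/kg (-0.25 to 0.12), and of Mlxipl, which differed by 0.18 (-0.02 to 0.39). Srebf1 differed by -0.05 at 706 mg/kg (-0.29 to 0.19), Fasn by 0.12 (-0.32 to 0.56), Acly by -0.0024 (-0.43 to 0.43) and Thrsp by -0.17 (-0.63 to 0.29). A missed threshold does not show that dosed and vehicle livers were alike, and these intervals give the sizes that remain possible.

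**Figure D2:**
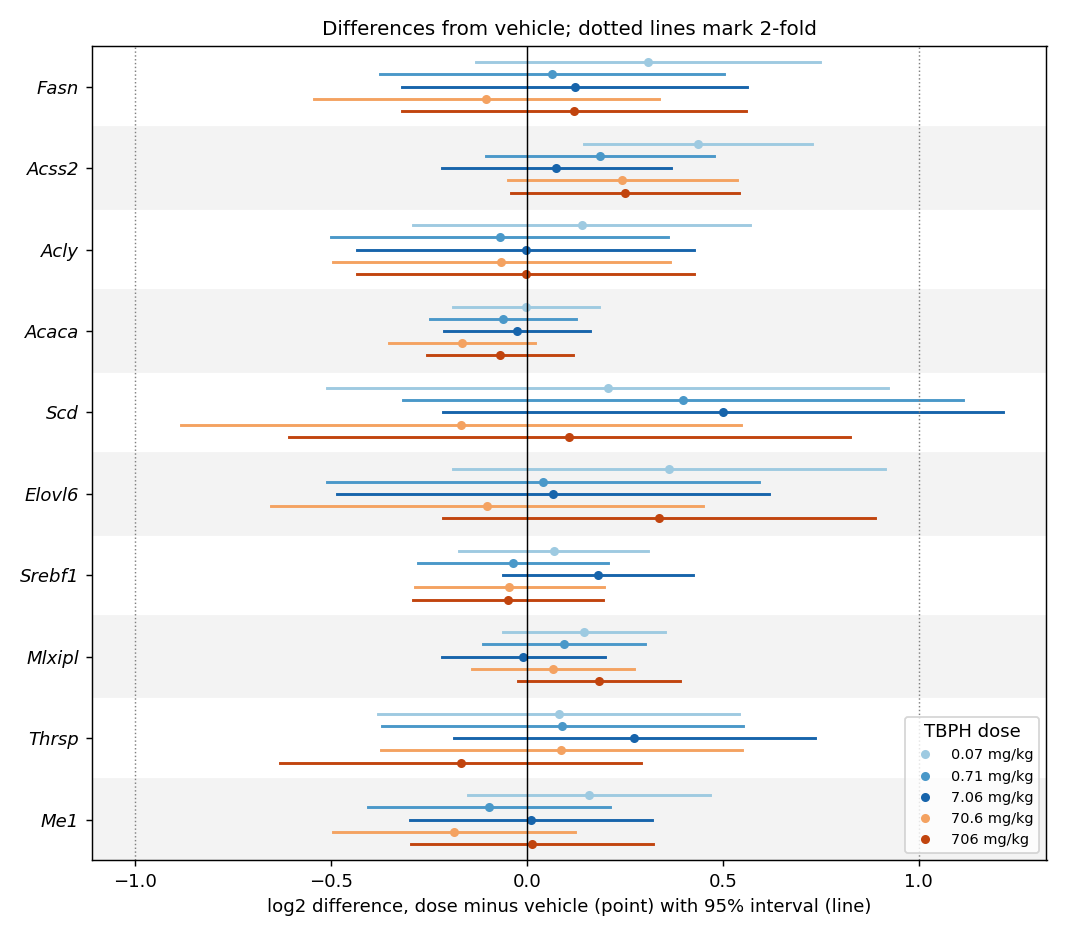
Difference of each gene from vehicle (x axis, log2, point) with its 95% interval (line) at 5 doses, by gene (y axis); dotted lines mark a factor of 2. The interval of Acss2 at 0.07 mg/kg leaves out 0, those of Scd are the widest, and 48 of 50 lie between the dotted lines.

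By dose, 9 of the 10 genes were higher than vehicle and 1 lower at 0.07 mg/kg, with a median difference of 0.15, beside a median of 0.0026 over all named genes. At 0.71 mg/kg 6 were higher and 4 lower (median 0.05), at 7.06 mg/kg 7 and 3 (median 0.07), at 70.6 mg/kg 3 and 7 (median -0.08) and at 706 mg/kg 6 and 4 (median 0.06). The medians of all named genes at these doses lay between 0.0058 and 0.011. These counts rest on genes whose arrays move together, as shown next, and give no direction over dose. For the slope over dose rank, 0 of the 10 genes had an adjusted p under 0.05 and 0 an unadjusted one, where 0% and 4.16% of all probe sets did. For any difference among the 6 groups, 0 of the 10 passed adjusted or unadjusted, where 0% and 2.54% of all probe sets did.

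With the group means removed, most of the 10 genes varied together from array to array. Of 45 pairs, 44 had a positive Pearson r over the 36 arrays, and 22 passed an adjusted p of 0.05 in a permutation test (100000 permutations within groups, two-sided, Benjamini-Hochberg over the 45 pairs), all positive. The median r was 0.40, while over all pairs of named genes it was 0.0025 and over pairs of genes above the median level 0.036. An r of at least 0.405 was reached by 5.04% of all pairs of named genes and by 8.43% of pairs above the median level, against 48.9% of these 45. That cut-off is the smallest r among the 22 calls (Acly with Mlxipl, 0.4048), rounded up. The 48.9% therefore leaves out that pair and counts Elovl6 with Thrsp (0.46), which was not called. The first principal component of the 10 genes held 52.1% of their variance. The genes were chosen as a known pathway, so nothing particular is read from this share.

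Fasn and Acly, the synthase and its citrate-fed supplier, were the tightest pair. Their r was 0.94 (permutation p = 1e-05, the smallest that 100000 permutations can give; adjusted p = 0.00011) and Spearman's rho 0.92 (p = 1e-05), and r was 0.92 without the 2 arrays farthest from the median. Within single groups r was 0.95 in vehicle, 0.96 at 0.07, 0.93 at 0.71, 0.96 at 7.06, 0.97 at 70.6 and 0.93 at 706 mg/kg. Arrays with high Fasn thus tended to have high Acly in every group. Leaving out any 1 array kept r between 0.93 and 0.95.

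Acss2, the acetate enzyme whose promoter is shown above, went with Elovl6 at r = 0.85 (permutation adjusted p = 0.00011; rho 0.86, p = 1e-05; 0.80 without the 2 farthest arrays). In the 6 groups this r lay between 0.63 at 70.6 mg/kg and 0.95 at 0.71 and 706 mg/kg. Acss2 also went with Fasn (r = 0.78; rho 0.70) and Acly (0.71; 0.66). Fasn went with Elovl6 at 0.66 and Acly with Elovl6 at 0.59. These 4 enzymes, the pair that makes acetyl-CoA, the synthase and the elongase, were called in all 6 of their pairs.

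Among the regulators, Srebf1 went most closely with Thrsp, r = 0.78 (permutation adjusted p = 0.00011; rho 0.85, p = 1e-05; 0.77 without the 2 farthest arrays). That r was 0.96 in vehicle, 0.85 at 0.07, 0.69 at 0.71, 0.79 at 7.06, 0.88 at 70.6 and 0.98 at 706 mg/kg. Srebf1 went with its known targets Fasn and Acly at 0.64 each, with Elovl6 at 0.55 and with Acss2 at 0.52, all called. In the 0.71 mg/kg group alone the r of Srebf1 was -0.29 with Fasn, -0.38 with Acly, 0.02 with Elovl6 and -0.0022 with Acss2. With Me1 (0.21) and Acaca (0.25) Srebf1 was not called. Thrsp was called with Acly (0.68), Fasn (0.66) and Acss2 (0.52). The call with Acss2 ended without 706 mg/kg replicate 5 (r = 0.37, permutation adjusted p = 0.098) or 7.06 mg/kg replicate 6 (r = 0.48, permutation adjusted p = 0.065). The same call ended by Spearman's rho (0.40, permutation adjusted p = 0.056) and without the 2 farthest arrays (r = 0.39, permutation adjusted p = 0.085).

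Acaca and Me1 formed a further pair at r = 0.68 (permutation adjusted p = 0.00066; rho 0.65; 0.53 without the 2 farthest arrays), with 0.94 at 70.6 mg/kg and -0.02 at 0.71 mg/kg. Both were called with Fasn (0.56 and 0.64) and with Acly (0.56 and 0.64), and Me1 also with Elovl6 (0.59) and Acss2 (0.56). Acaca was called with 3 of the 9 other genes and Me1 with 5.

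Scd and Mlxipl stood apart. Scd, with the widest spread of the 10, was called with 0 of the 9 others; its r was highest with Acly (0.38, permutation adjusted p = 0.057; rho 0.21), then Acaca and Mlxipl (0.36 each), 0.28 with Fasn and -0.11 with Elovl6. Without 0.07 mg/kg replicate 4, the array of highest Scd, the r of Scd and Acly was 0.23. Mlxipl, the gene of ChREBP, was called with Acly alone (0.40, permutation adjusted p = 0.039; rho 0.41), a call that ended without 0.07 mg/kg replicate 4 (r = 0.30, adjusted p = 0.152), the array with the high GAPDH difference, and without 9 other single arrays. Its r with Elovl6 was 0.01 and with Me1 0.04. Whether these correlations are weaker than those of the other genes was not tested.

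**Figure D3:**
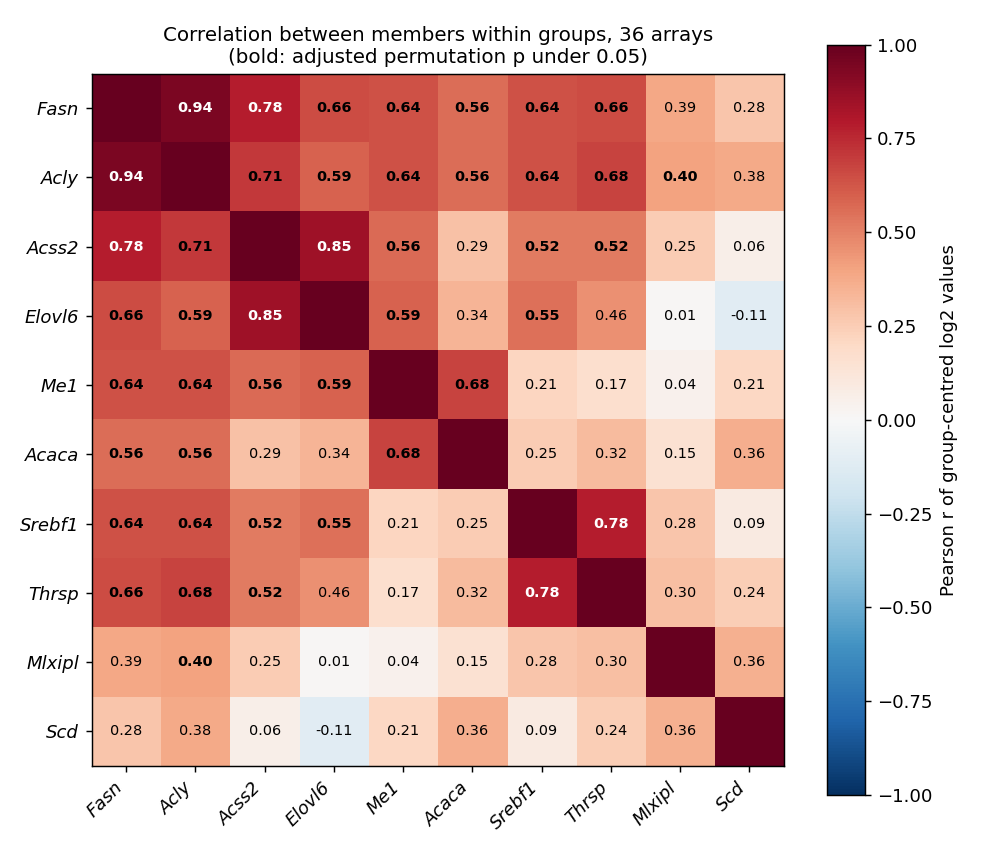
Pearson r of group-centred log2 values between the 10 genes (rows and columns) over 36 arrays, red positive and blue negative, bold where the adjusted permutation p is under 0.05. Fasn, Acly, Acss2 and Elovl6 form a block of r from 0.59 to 0.94, and the Scd row holds no bold value.

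**Figure D4:**
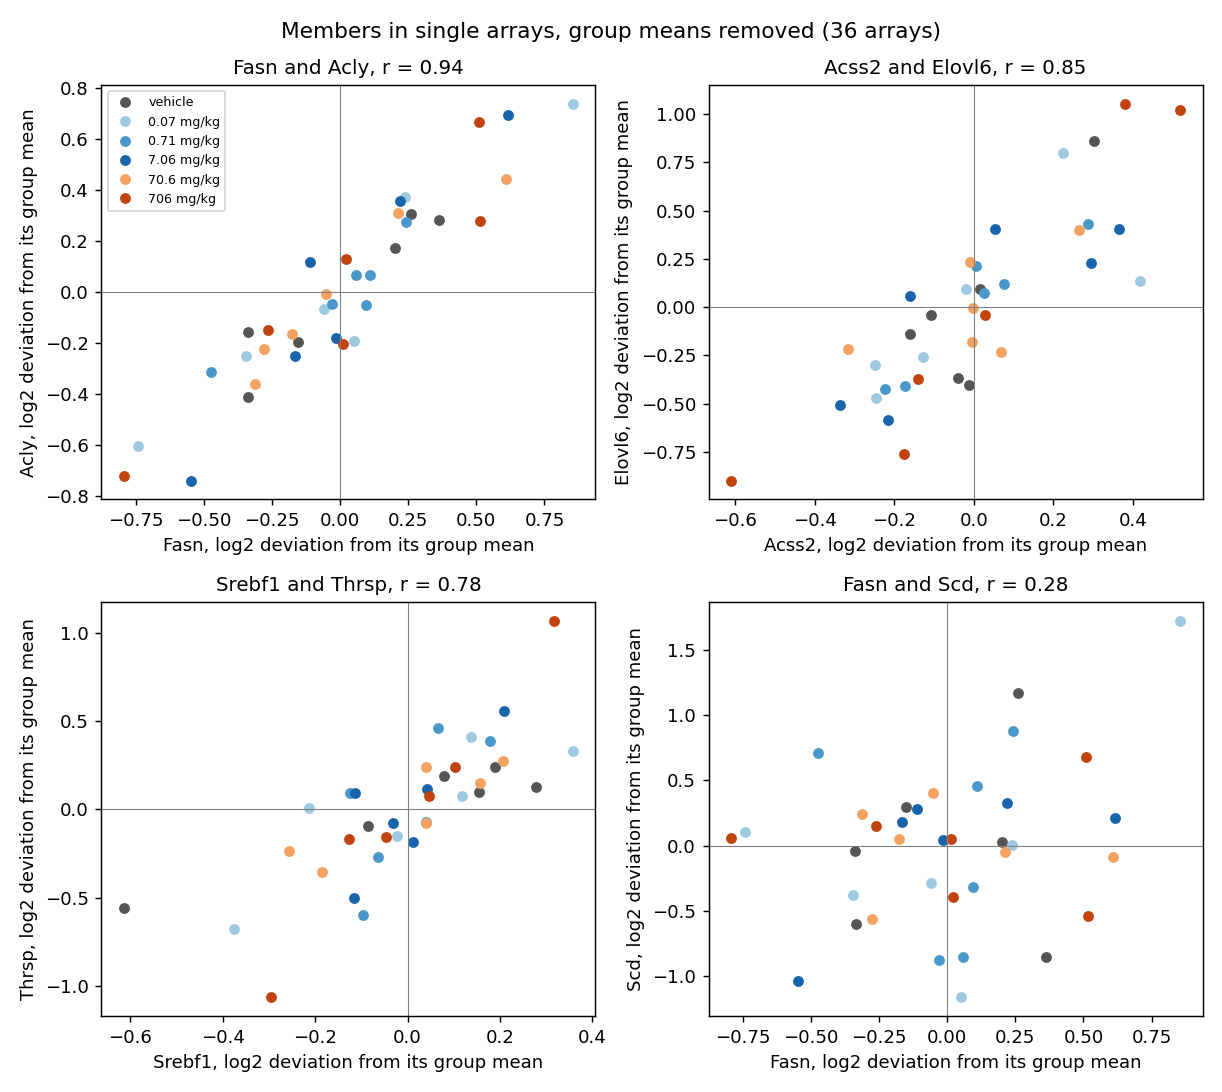
Deviation of each array from its group mean (log2, both axes) for 4 pairs, coloured by dose group. Fasn and Acly lie along a line (r = 0.94), Acss2 with Elovl6 (0.85) and Srebf1 with Thrsp (0.78) more loosely, and Fasn with Scd (0.28) as a cloud.

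Single arrays made this visible. In 0.07 mg/kg replicate 4 all 10 genes lay above their group means, by 0.85 log2 in Fasn, 0.74 in Acly and 1.73 in Scd; this is also 1 of the 2 arrays with a high GAPDH difference. In 706 mg/kg replicate 5, 9 of 10 lay below, by 1.06 in Thrsp, 0.90 in Elovl6, 0.79 in Fasn and 0.61 in Acss2, while its GAPDH difference was -0.04 and its Scd was 0.06 above. In the same group, replicate 3 had 9 of 10 above, with Thrsp higher by 1.07 and Elovl6 by 1.05. All 10 were above their group means also in 0.07 mg/kg replicate 5 and 7.06 mg/kg replicate 6, and all 10 below in 0.07 mg/kg replicate 6. Of the 36 arrays, 8 had at least 8 genes above and 9 had at most 2. The correlation of each gene with the GAPDH difference lay between -0.08 and 0.38 (Mlxipl, permutation p = 0.048, adjusted p = 0.482), and with that difference regressed out 22 pairs were called. Without the 2 arrays 21 were.

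Other probe sets of the same genes gave a check on the measurement. Thrsp's brightest probe set followed its others at r = 0.98 and 0.99 within groups, Elovl6's at 0.94, Fasn's at 0.91, Me1's at 0.90 and Srebf1's at 0.84. Acaca's second probe set was dim (mean 5.20) and followed the first at 0.44. With the mean of all probe sets of a gene in place of the brightest, 20 pairs were called. The calls of Fasn with Acaca (0.23), Acly with Acaca (0.36) and Elovl6 with Srebf1 (0.39) ended, and Fasn with Mlxipl (0.45, permutation adjusted p = 0.025) was gained.

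A panel of 10 partner genes gave 100 further pairs, of which 15 passed an adjusted permutation p of 0.05. Of pairs of the 10 with all other named genes, 0.909% had r of at least 0.5 and 0.768% had r of -0.5 or lower. The share of those pairs that would pass the test was not computed, and the panel was chosen with earlier results known. The sterol-regulated Sqle, squalene epoxidase, went with Acss2 (0.84; rho 0.83), Fasn (0.79; 0.72), Elovl6 (0.74; 0.78), Acly (0.70; 0.65) and Me1 (0.57; 0.58). Insig1, the SREBP retention protein that is itself an SREBP target, went with Fasn (0.76; rho 0.66), Acly (0.65; 0.58), Acss2 (0.57; 0.52), Mlxipl (0.49; 0.44) and Thrsp (0.48; 0.41). Pklr, liver pyruvate kinase and a classical ChREBP target, went with Scd (0.60; rho 0.47), Acaca (0.54; 0.51) and Thrsp (0.45; 0.51), and its r with Mlxipl was 0.46 (permutation adjusted p = 0.075). Igfbp1, which insulin lowers, was negatively related to Acss2 (-0.69; rho -0.58) and Elovl6 (-0.56; -0.51). Pck1, Pdk4, Cyp4a1, Dbp, Per2 and Mid1ip1 were called with none of the 10. Of the 15 calls, 8 held under all 3 alternatives (Spearman's rho, without the 2 arrays farthest from the median, and without the 2 arrays of high GAPDH difference) and 7 did not. All 3 calls of Pklr ended without the 2 farthest arrays, with Scd (r = 0.46, permutation adjusted p = 0.11), Acaca (0.48, adjusted p = 0.058) and Thrsp (0.51, adjusted p = 0.058). By Spearman's rho the call of Scd with Pklr also ended (permutation adjusted p = 0.069), and without the arrays of high GAPDH difference that of Thrsp with Pklr (adjusted p = 0.065). The calls of Insig1 with Mlxipl and with Thrsp ended under each of the 3 alternatives, with permutation adjusted p values of 0.087 to 0.25 and of 0.11 to 0.117, and that of Insig1 with Acss2 ended without the 2 farthest arrays (0.058). Elovl6 with Igfbp1 ended by rho (permutation adjusted p = 0.058) and without the 2 farthest arrays (r = -0.42, adjusted p = 0.21). Without those 2 arrays 9 of the 100 pairs were called.

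Lists of related genes showed where the shared movement reached. Of 14 measured genes of cholesterol synthesis, 66 of 140 pairs with the 10 genes (47.1%) had r of at least 0.5, against 0.909% of pairs of the 10 with all other named genes and 1.17% with those above the median level. The median r of that list was 0.80 with Acss2, 0.74 with Fasn, 0.69 with Elovl6, 0.66 with Acly, 0.50 with Me1, 0.46 with Thrsp, 0.40 with Srebf1, 0.31 with Acaca, 0.20 with Mlxipl and 0.01 with Scd. At all 5 doses most of that list was higher than vehicle (14, 12, 12, 13 and 13 of 14 from the lowest dose up), with 0 called. Of all named genes, 51.6%, 53.4%, 54.4%, 54.8% and 53.1% were higher at the same doses. Most genes of the list moved with Acss2 from array to array, so these counts are not independent observations. Its Idi1 and Mvk differed by 0.45 and 0.24 at 0.07 mg/kg. Acss2 was likewise above vehicle at all 5 doses, without a call, and all of these differences share the vehicle arrays.

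Shares were smaller in other related lists, at 14% for elongation and desaturation, 14.2% for sugar and NADPH supply, 5% for triglyceride genes and 4.12% for regulators. These lay below the 47.1% of cholesterol synthesis and above the background of 0.909% and 1.17%. Of 10 measured genes of elongation and desaturation, 14 of 100 pairs reached 0.5, such as Fads1, a desaturase of polyunsaturated fatty acids, with Acly (0.76) and Fasn (0.73). Scd2, a second desaturase, had its highest r with Scd (0.63). Of 12 genes of sugar and NADPH supply, 17 of 120 pairs did, among them Slc25a1, the citrate carrier, with Acly (0.79) and Pgd, an NADPH-making dehydrogenase, with Fasn (0.71). Triglyceride genes reached 0.5 in 11 of 220 pairs, with Pnpla3 and Acly at 0.80, and regulators of SREBP and ChREBP in 7 of 170. These examples were chosen after their values were seen. Fasting genes (11), PPAR alpha targets (10) and clock genes (14) reached a positive r of 0.5 in none. Nor did markers of adipocytes, Kupffer cells, cholangiocytes, endothelium or lymphocytes. Stellate markers did in 2 of 90 pairs and hepatocyte markers in 3 of 100. At a background of 0.909% and 1.17%, a count of 0 in lists of this size says little.

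Negative relations were found in some of the same lists. An r of -0.5 or lower was reached by 0.768% of pairs of the 10 with all other named genes and by 0.946% with those above the median level. Among fasting genes 5 of 110 pairs did: Igfbp1 with Acss2 (-0.69) and Elovl6 (-0.56), and Irs2, an insulin receptor substrate, with Acss2 (-0.60), Fasn (-0.60) and Elovl6 (-0.51). Among PPAR alpha targets 2 of 100 did, both of Vnn1, a pantetheinase, with Srebf1 (-0.64) and Thrsp (-0.63). The stellate marker Rgs5 reached it with Acly and Mlxipl (-0.51 each), the adipocyte marker Cfd, complement factor D, with Fasn (-0.51) and the lymphocyte marker Cd79b with Mlxipl (-0.50). No pair of the clock, cholesterol, regulator, triglyceride, sugar supply or elongation lists did, nor any of the Kupffer, cholangiocyte, endothelial or hepatocyte markers. At the background shares given here, absence in lists of this size says little. The r values of these lists are descriptions without a test, other than those of Igfbp1.

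**Figure D5:**
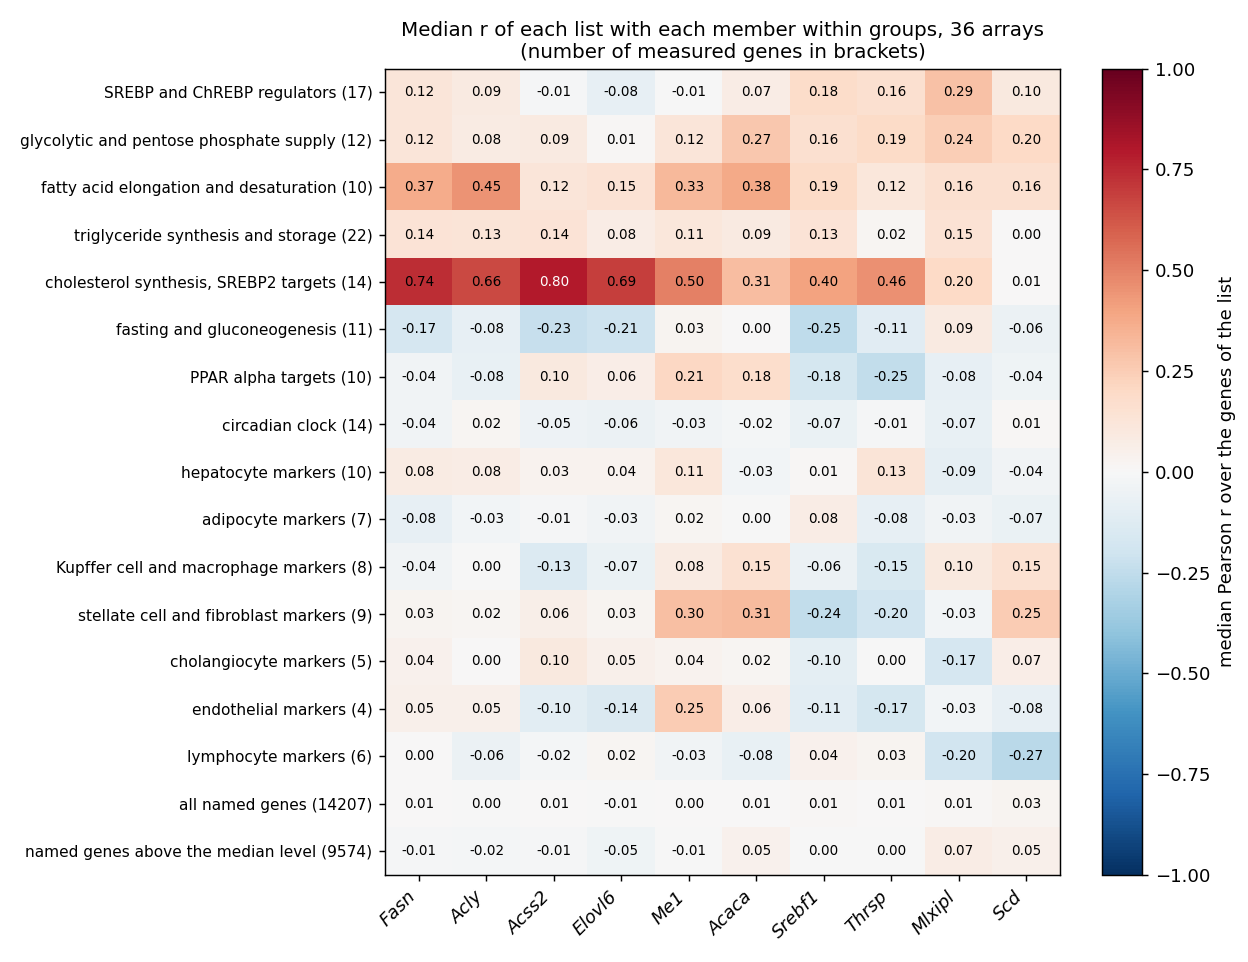
Median Pearson r (colour and number) of each gene list (rows, number of measured genes in brackets) with each of the 10 genes (columns), group-centred, over 36 arrays. The cholesterol synthesis row runs from 0.80 with Acss2 to 0.01 with Scd, and the rows of other cell types stay between -0.27 and 0.31.

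No gene of these lists was called at any dose. By the smallest p for any difference among the groups, the leading triglyceride genes were Cidea, a lipid droplet protein, 0.61 higher at 70.6 and 0.51 higher at 706 mg/kg than in vehicle, and Mttp, the triglyceride transfer protein of VLDL assembly, which differed by -0.10 at 70.6 and by 0.02 at 706 mg/kg. For PPAR alpha targets they were Acot2, an acyl-CoA thioesterase, and Eci1, an enzyme of beta-oxidation, 0.22 and 0.31 higher at 706 mg/kg. From 0.07 up to 70.6 mg/kg Acot2 differed by 0.16, -0.06, -0.11 and -0.03. Over the same doses Eci1 differed by 0.16, -0.03, -0.08 and 0.05, so neither rose in order with dose. The leading clock genes had differences of opposite sign, -0.53 for Cry1 and 0.54 for Nr1d2 at 70.6 mg/kg. Pck1 and Igfbp1 led the fasting genes. Pck1 was lower than vehicle at all 5 doses, by -0.14 to -0.40 log2, while Igfbp1 differed by 0.19, 0.60, -0.11, 0.06 and -0.14 from the lowest to the highest dose. Among the regulators Usf2 and Mbtps2, in sugar supply Gpi and Me2, and in elongation and desaturation Scd2 and Elovl3 came first, with differences at 706 mg/kg between -0.08 and 0.22. The limma adjusted p of all of these was at least 0.92 at each dose.

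Markers of other cell types had median r values between -0.27 and 0.31 with the 10 genes, the highest being those of the stellate list with Acaca (0.31) and Me1 (0.30). The mean of 8 Kupffer cell markers lay between 8.46 and 8.69 across groups, that of 9 stellate markers between 6.62 and 6.99 and that of 7 adipocyte markers between 5.48 and 5.61. The adipocyte list had 3 of 7 markers above the median probe set, and its median r with the 10 genes lay between -0.08 and 0.08. The part of these cell types in the correlations was not tested. Leading markers by p were Adgre1 and Csf1r, Col3a1 and Des, Pparg and Cfd, Krt7 and Epcam, Stab2 and Lyve1, Ms4a1 and Cd3d, and Tdo2 and Apoa1 of hepatocytes, all with an adjusted limma p of at least 0.92 at each dose.

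For each gene the 3 others most like it were named by r of group-centred values over the 36 arrays among named genes above the median level. For Fasn they were Acly (0.94), Nsdhl (0.90) and Fdps (0.84), for Acly Fasn, Nsdhl (0.90) and Secisbp2l (0.84), for Acss2 Acat2 (0.95), Lss (0.89) and Idi1 (0.86), and for Elovl6 Acss2 (0.85), Acat2 (0.84) and Msmo1 (0.82). Srebf1 was most like Thrsp (0.78), Ssx2ip (0.77) and Pacsin3 (0.71), and Thrsp most like Srebf1, Hes6 (0.73) and Jpt2 (0.70). Acaca was most like Tprg1l (0.71), Cltc (0.71) and Abhd6 (0.69), Me1 most like Acaca (0.68), Eif2ak4 (0.65) and Ttr (0.65), Scd most like Scd2 (0.63), Pklr (0.60) and Myh9 (0.58), and Mlxipl most like Epm2aip1 (0.76), Aplp2 (0.75) and Irf3 (0.73). Fasn and Acly were each other's nearest gene, as were Srebf1 and Thrsp.

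The most negative r belonged to Slc46a3 with Acly (-0.82), Ahcy with Fasn (-0.79) and Acss2 (-0.74), Ano6 with Srebf1 (-0.79), Mt1, a metallothionein, with Thrsp (-0.75), Lipt2 with Mlxipl (-0.72), Acbd4 with Me1 (-0.70), Mpv17l with Scd (-0.70), Ing2 with Elovl6 (-0.69) and C6h14orf28 with Acaca (-0.59). With the mean of the 10 standardised genes, the highest r among the other genes were those of Nsdhl (0.85), Secisbp2l (0.84), Pgd (0.81), Acat2 (0.81), Lss (0.78), Slc25a1 (0.77), Fdps (0.77), Dhcr7 (0.75), Pnpla3 (0.75) and Pmvk (0.74). Of these 10, Nsdhl, Lss, Fdps, Dhcr7 and Pmvk stand in the cholesterol list. The most negative were Slc46a3 (-0.83), Ahcy (-0.80), Acot12 (-0.67), Ugp2 (-0.66) and Deptor (-0.66).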

How the data were processed

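Liver RNA was hybridised to 36 Affymetrix 3′ expression arrays, 6 per group by the labels. Expression was deposited as log2 values, which the authors made with RMA in affy, per the submitters' processing notes; versions and genome build are not given in the sources used here. RMA makes arrays share 1 distribution, so a shift of all genes would be hidden. After 57 control probe sets were left out, limma 3.58.1 (R 4.3.3) was fitted to all 31042 with 1 mean per group; differences, the slope over dose rank and the F test were adjusted by Benjamini-Hochberg at 0.05. The package of the design text, maanova, could not be used here. Correlations used group-centred values of the brightest probe set per gene (Python 3.11.15) and 100000 permutations within groups. Arrays give no counts, and their number limits precision. Scripts were tested on simulated data. The genes, lists, partners and settings were chosen with earlier results of these data known. Named were all 10 genes, the 2 genes per list with the smallest p for any difference, the most alike genes and the partners. Some planned partner genes are not reported here. Figures used matplotlib 3.10.9.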

Additional observations from a re-analysis of the deposited data

Results flagged for a closer look

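Of 60 sets of 6 arrays (10 genes in 6 groups), 1 held an array far from the others of its group: Scd on 7.06 mg/kg replicate 2, at 9.758 against 10.84 for the nearest of the other 5, a gap that takes up 0.79 of the range of the group. Chance marks about 1 in 20 such sets. On the same array Acly was 0.74 and Fasn 0.55 below the group mean, and its GAPDH 3′ minus 5′ difference was -0.02. Whether these belong together was not tested.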

How the results depend on the processing

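No probe set was called for any dose, for the slope or for any difference at a threshold of 0.05 under any limma setting tried. The settings were intensity trend, array weights, dim probe sets left out, median centring, mean of probe sets, other dose scales and pairwise fits. Further settings left out the 2 arrays of high GAPDH difference or each array in turn. The lowest and highest count over these settings was 0. The threshold of 0.1 was applied to the main fit alone, where 0 were called. The smallest limma adjusted p of the 10 genes under any setting was 0.77. At an unadjusted p under 0.05 the counts were 953, 1235, 1079, 1626 and 1080 from the lowest to the highest dose, 1292 for the slope and 788 for any difference. With the replicate block 0 probe sets and 30 pairs were called (median r 0.45). The permutations for these pairs did not keep the replicate numbers, so their p values tend to be too small and 30 may be too many. Arrays of the same number correlated at -0.016 on average, against 0.0034 for different numbers, and 4 of 36 were most like an array of their own number. These values show no pairing by number. Whether arrays of 1 number shared a batch or handling was not tested.

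Called pairs numbered 20 to 27 under the alternatives that use several groups, other than the replicate block, and 20 to 25 without each array in turn (median r 0.34 to 0.47). In single groups of 6 arrays 0 pairs were called in vehicle, 0 at 0.07, 0 at 0.71, 0 at 7.06, 3 at 70.6 and 0 at 706 mg/kg; with 6 arrays the smallest exact permutation p is 0.0014, which is 0.0625 after adjustment for a single pair of 45, so the design nearly fixed these counts at 0. The median r was 0.69 at 0.07 mg/kg and -0.024 at 0.71 mg/kg, and the cause was not tested. Called pairs with a negative r at 0.71 mg/kg alone were Fasn with Acaca (-0.17), Srebf1 (-0.29) and Me1 (-0.027), Acss2 with Srebf1 (-0.0022) and Thrsp (-0.36), Acly with Acaca (-0.24) and Srebf1 (-0.38), and Acaca with Me1 (-0.024). At 70.6 mg/kg alone Acss2 with Srebf1 was -0.071, and in vehicle alone Acss2 with Me1 was -0.040, Acly with Acaca -0.095 and Acly with Me1 -0.030. Without the 2 arrays farthest from the median, 9 partner pairs were called instead of 15.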
